A study of Mus musculus with 2 samples.

Results

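Red blood cells and their precursors appeared in single-cell libraries of mouse limb muscle as cell barcodes in which globin RNA outweighed everything else. The barcodes described here were chosen by that property: genes with symbols starting Hba- or Hbb- took 50% or more of the raw UMIs, with no filter on genes or mitochondrial RNA. A UMI (unique molecular identifier) marks a captured RNA molecule, so that its PCR copies count once. By this rule 313 of 18721 barcodes were globin-rich, 70 of 12941 at E12.5 (E for embryonic day) and 243 of 5780 at E15.5.

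The study made 1 droplet library (10x Chromium, 3-prime v3.1 chemistry) from limb skeletal muscle of wild-type C57Bl/6 embryos at each age. Forelimb and hindlimb muscle was pooled after mechanical and trypsin dissociation, and the number of embryos is not given in the labels used here. Any difference in blood content, dissociation or sequencing between the libraries therefore cannot be told apart from age. With 1 library per age no test was possible, so intervals below are 95% intervals for counting error only.

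In mouse embryos the first red cells arise in the yolk sac, enter the circulation while still nucleated and make embryonic globins. Definitive red cells arise later in the fetal liver, lose their nuclei before or around release and make adult globins. Haemoglobin joins alpha-type with beta-type chains around haem. The alpha-type genes here are Hba-x (zeta, embryonic), Hba-a1 and Hba-a2 (adult). The beta-type genes are Hbb-y (epsilon-y), Hbb-bh1 (beta-h1) and Hbb-bh2, counted as embryonic, and Hbb-bs and Hbb-bt, the adult pair.

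By the GENCODE vM21 annotation of GRCm38, the beta-type genes lie on the minus strand of chromosome 7. Hbb-bt is at chr7:103812524-103813996, Hbb-bs at chr7:103826534-103828096, Hbb-bh1 at chr7:103841637-103843164 and Hbb-y at chr7:103851749-103853216. The alpha-type genes lie on the plus strand of chromosome 11, with Hba-x at chr11:32276400-32278116, Hba-a1 at chr11:32283511-32284465 and Hba-a2 at chr11:32296489-32297298. The coding sequences of Hba-a1 and Hba-a2 differed at 1 of 429 aligned bases, and those of Hbb-bs and Hbb-bt at 1 of 444. After the stop codon, 16 of 90 aligned positions differed in the first pair and 40 of 139 in the second. How the authors' counting divided reads between such near copies was not tested, so the split within each adult pair is uncertain. Hbb-y was 75.7% identical to Hbb-bs in coding sequence, and Hba-x 67.5% identical to Hba-a1.

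A set of 5 embryonic and adult globin genes is shown by the 130 bases before their RefSeq start (GRCm38.p6), 5′ to 3′ on the gene's strand. Capitals mark 3 motifs searched on both strands. These are the CACCC box, read as GGGTG on the opposite strand, the CCAAT box, read there as ATTGG, and the TATAA box, read there as TTATA. The windows are chr7:103853208-103853337 (minus) for Hbb-y, chr7:103827929-103828058 (minus) for Hbb-bs, chr7:103813924-103814053 (minus) for Hbb-bt, chr11:32276470-32276599 (plus) for Hba-x and chr11:32283542-32283671 (plus) for Hba-a1. The GENCODE starts of these genes lie upstream of their RefSeq starts, so part or all of each window is inside the gene in that annotation.
Hbb-y: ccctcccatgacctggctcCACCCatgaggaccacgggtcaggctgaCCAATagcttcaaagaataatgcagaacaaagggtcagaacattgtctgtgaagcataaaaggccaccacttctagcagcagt
Hbb-bs: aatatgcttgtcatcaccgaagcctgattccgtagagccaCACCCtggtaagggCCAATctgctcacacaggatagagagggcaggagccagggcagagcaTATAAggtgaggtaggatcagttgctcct
Hbb-bt: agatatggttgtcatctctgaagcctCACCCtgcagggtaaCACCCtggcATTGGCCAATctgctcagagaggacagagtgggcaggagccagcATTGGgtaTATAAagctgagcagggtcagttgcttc
Hba-x: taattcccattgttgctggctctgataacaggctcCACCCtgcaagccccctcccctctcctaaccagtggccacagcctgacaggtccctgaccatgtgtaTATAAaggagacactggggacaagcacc
Hba-a1: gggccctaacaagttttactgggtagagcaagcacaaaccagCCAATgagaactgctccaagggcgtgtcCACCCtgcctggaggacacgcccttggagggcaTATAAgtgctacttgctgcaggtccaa

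All 5 windows held CACCC, the core of sites that Klf1-type factors bind, and 33.7% of 32851 windows of the same length in the RefSeq table did so. CCAAT was in 22.4% of those windows and in every printed one but Hba-x. TATAA was in 12.7% and in every printed one but Hbb-y. Hbb-bt held CACCC at 104 and at 89 bases before its start, and CCAAT at 75 bases, with an opposite-strand copy directly beside it at 80 bases and a further one at 36 bases. Hbb-bs held CACCC at 90 and CCAAT at 76 bases before its start. GATAA, the core of Gata-factor sites, was in 11.4% of all windows and, among these 5, in Hba-x, at 107 bases before its start. A match of letters is a description, not a binding site.

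Globin-rich barcodes were 0.541% of the E12.5 library (exact Clopper-Pearson interval 0.422% to 0.683%) and 4.20% of the E15.5 library (3.70% to 4.75%). The difference was 3.66 percentage points (Newcombe interval 3.16 to 4.22). This share depended on how barcodes were filtered. With a minimum of 500 genes and a mitochondrial limit of 10%, 26 globin-rich barcodes were left at E12.5 against 6 at E15.5, or 0.212% and 0.146% of the barcodes that passed, a difference of -0.0658 points. Only the gene minimum removed globin-rich barcodes, 44 at E12.5 and 237 at E15.5, as 0 reached the mitochondrial limit. Fewer red cells and less RNA per red cell cannot be told apart from such shares.

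Globin took 63.4% of the UMIs of the E12.5 members and 86.6% of those of the E15.5 members. As a description of the threshold, the shares just inside it were 50.5%, 51.1% and 51.2% at E12.5 and 51.5%, 52.5% and 53.5% at E15.5. The shares just outside were 48.6%, 47.1% and 46.7% at E12.5 and 49.7%, 46.2% and 43.6% at E15.5. An E12.5 member held 713 to 3749 UMIs (median 2122.5), of which 184 to 1696 (median 789.5) were not globin. An E15.5 member held 836 to 13214 UMIs (median 5837), of which 103 to 3055 (median 657) were not globin. The E15.5 members were thus deeper in globin and similar in depth of other RNA, with medians of 465.5 genes per barcode at E12.5 against 241 at E15.5. All other barcodes had median depths of 2387 and 7598 UMIs. The libraries held 34907675 and 46966083 UMIs in all, and 17 barcode sequences occurred in both, 0 of them globin-rich.

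The erythroid label was checked with 7 erythroid genes that the rule did not use, among them Alas2, Slc4a1, Klf1, Gata1 and Rhag. All 70 members of E12.5 had a UMI of at least 1 of them, as did 224 of 243 members of E15.5, against 2.08% and 2.44% of the other barcodes. Their summed level was 11431 and 15132 CPM in the members against 17.9 and 9.18 CPM in the other barcodes. CPM stands throughout for counts scaled to 1000000 non-globin UMIs. It needs no correction for gene length because 3-prime UMI libraries count transcript ends. Markers of other classes were mostly lower in members than in the other barcodes, though many were not absent. Of 9 connective tissue markers, the summed level was 1141 CPM in members and 3850 CPM in other barcodes at E12.5, and 3057 and 9736 CPM at E15.5. Granulocyte markers were at 0 in members of both ages, and endothelial, macrophage and mast cell markers were at 0 at E12.5 and at 50.6, 67.4 and 78.7 CPM at E15.5. Chondrocyte markers were at 688 and 84.3 CPM in members, against 2644 and 455 CPM in the other barcodes. Muscle lineage markers were at 272 and 242 CPM in members, against 528 and 677 CPM in the other barcodes. Megakaryocyte and platelet, Schwann, epithelial and mural markers were under 40 CPM in members at both ages. In the other barcodes they were at 33.3, 42.7, 15.8 and 75.1 CPM at E12.5. At E15.5 they were at 57.6, 97.6, 33.7 and 121 CPM there. Epithelial markers, with 1 UMI in members of E12.5 (18.1 CPM), were thus not lower in members at that age. Markers of another class made up 1% or more of non-globin UMIs in 0 members at E12.5 against 7 at E15.5. Without those 7 the embryonic share of globin UMIs at E15.5 was 2.21%, against 2.17% with them. Genes past 2-fold between the ages then numbered 108 higher and 378 lower, against 107 and 382. The part of other-class RNA in the remaining members was not tested.

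Embryonic globins made up most globin RNA of the E12.5 members and almost none at E15.5. Their share of all globin UMIs was 71.4% (71.1% to 71.7%) at E12.5, as against 2.17% (2.14% to 2.20%) at E15.5. Among beta-type UMIs alone it was 86.4% and 2.61%, and among alpha-type UMIs 46.8% and 1.28%. Each library was nevertheless a mixture of barcodes at opposite ends of the scale. At E12.5, 66 of 70 members (94.3%, interval 86.0% to 98.4%) had 50% or more embryonic UMIs among their beta-type UMIs and are called embryonic-rich. At E15.5, 14 of 243 members (5.76%, interval 3.19% to 9.48%) were embryonic-rich, and the other 229 are called adult-rich. These are ranges of a score, not cell types, but no member lay near the boundary: 0 had an embryonic share between 40% and 60%.

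**Figure D1:**
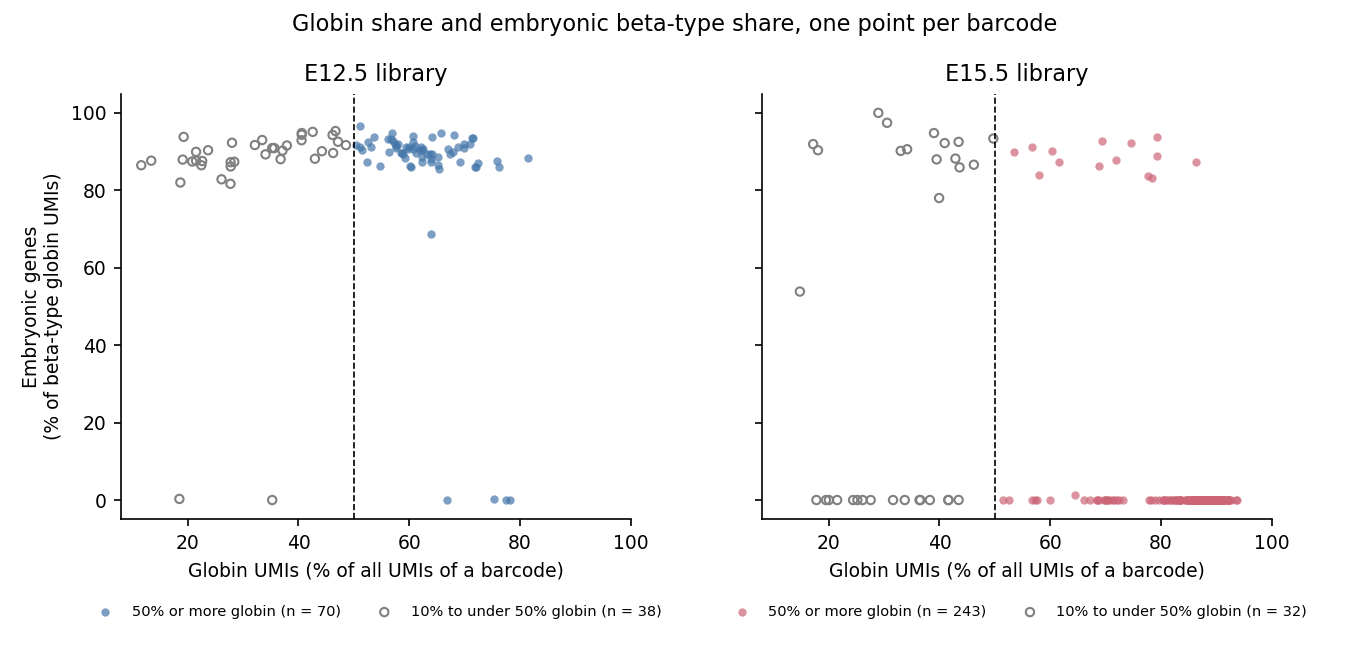
Each point is a barcode, with globin UMIs as a percent of its UMIs on the horizontal axis and embryonic genes as a percent of its beta-type globin UMIs on the vertical axis. Filled points are globin-rich barcodes, open points hold 10% to under 50% globin, and the dashed line marks 50%. Filled points at E12.5 sit at 68.7% and above except 4 near 0, and at E15.5 they sit at 1.19% and below except 14 at 83.1% and above.

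In the 66 embryonic-rich barcodes of E12.5 the embryonic share of beta-type UMIs ran from 68.7% through a median of 90.5% to 96.6%. The 14 embryonic-rich barcodes of E15.5 ran from 83.1% through 88.4% to 93.7%, within the range of the E12.5 ones. Adult-rich barcodes had almost no embryonic RNA. The 4 of E12.5 had 0, 1, 0 and 0 embryonic UMIs of 412, 647, 452 and 690 beta-type UMIs. Of the 229 of E15.5, 218 had 0 embryonic beta-type UMIs, and the highest share was 1.19%. Summed over them, 29 of 1109598 globin UMIs were embryonic (0.00261%).

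Below the globin threshold most barcodes were also at an end of the scale. Of the 38 barcodes with 10% to under 50% globin at E12.5, 36 were embryonic-rich. Of the 32 at E15.5, 16 were, and their embryonic share ran from 53.8% through a median of 90.5% to 100%, so that at least 1 of them lay near the boundary. Taking all barcodes with 10% or more globin, embryonic-rich ones made up 102 of 108 at E12.5 (94.4%), while at E15.5 they made up 30 of 275 (10.9%). Among the members alone these shares were 94.3% and 5.76%. The embryonic-rich share at E15.5 thus moved with the threshold more than the share at E12.5 did.

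Hbb-y was the leading globin of the embryonic-rich barcodes at both ages. Its UMIs per embryonic-rich barcode ran from 227 through a median of 711.5 to 1343 at E12.5 and from 238 through 1237.5 to 3572 at E15.5, so that the ranges overlap. It took 53.6% of their globin UMIs at E12.5 against 50.8% at E15.5. In the adult-rich barcodes of E15.5 it took 0.000901%, and 7 of 229 (3.06%) had a UMI of it. In barcodes with under 10% globin, a Hbb-y UMI was found in 23.9% at E12.5 against 3.12% at E15.5. The adult-rich barcodes of E15.5 were thus at the background of their library for Hbb-y. Thinned to 500 UMIs per barcode, 66 of 70 members at E12.5 (94.3%, unthinned 95.7%) and 14 of 243 at E15.5 (5.76%, unthinned 8.64%) had a Hbb-y UMI, against 6.78% and 0.527% of barcodes with under 10% globin.

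The remaining embryonic genes differed more between the ages. Hbb-bh1, expressed early in primitive red cells, took 2.17% of the globin UMIs of embryonic-rich barcodes at E12.5 against 0.250% at E15.5. As a share of Hbb-bh1 and Hbb-y together it was 3.90% and 0.490%. Hba-x, the zeta chain, made up 48.5% of their alpha-type UMIs at E12.5 against 29.9% at E15.5. Per barcode the Hba-x share ran from 8.27% through a median of 49.7% to 69.3% at E12.5 and from 12.9% through 27.1% to 50.4% at E15.5, so the medians differ while the ranges overlap. Hbb-bh2 gave 1 UMI in all members.

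Adult globins were present in the embryonic-rich barcodes too. At E12.5, Hba-a1 took 12.48% and Hba-a2 7.02% of their globin UMIs, so that alpha-type RNA was about evenly divided between embryonic and adult genes. At E15.5 these shares were 19.0% and 10.3%. In adult-rich barcodes Hba-a1 took 18.8% at E12.5 against 18.7% at E15.5, close to the level of the embryonic-rich ones at E15.5. Hba-a2 took 17.2% and 14.4% there.

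The adult beta pair was used in a different order in the barcode ranges. In embryonic-rich barcodes of E12.5, Hbb-bt took 4.23% and Hbb-bs 2.19% of globin UMIs, and Hbb-bt made up 65.9% of the pair. Hbb-bt exceeded Hbb-bs in 60 of those 66 barcodes. In adult-rich barcodes of E15.5, Hbb-bs took 47.8% and Hbb-bt 19.2%, with Hbb-bt at 28.7% of the pair and ahead in 0 of 229. Per barcode the Hbb-bt share of the pair ran from 21.5% through a median of 67.7% to 97.8% in the former and from 4.62% through 27.9% to 39.9% in the latter. The 14 embryonic-rich barcodes of E15.5 lay lower than those of E12.5, at 14.8%, 33.8% and 92.6%, with Hbb-bt ahead in 1. The 4 adult-rich barcodes of E12.5 had Hbb-bt at 38.1% of the pair. A Hbb-bs UMI was in 45.6% of barcodes with under 10% globin at E15.5 against 2.67% at E12.5, or 9.14% against 0.748% after thinning to 500 UMIs. The part of free RNA in the Hbb-bt shares was not tested.

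**Figure D2:**
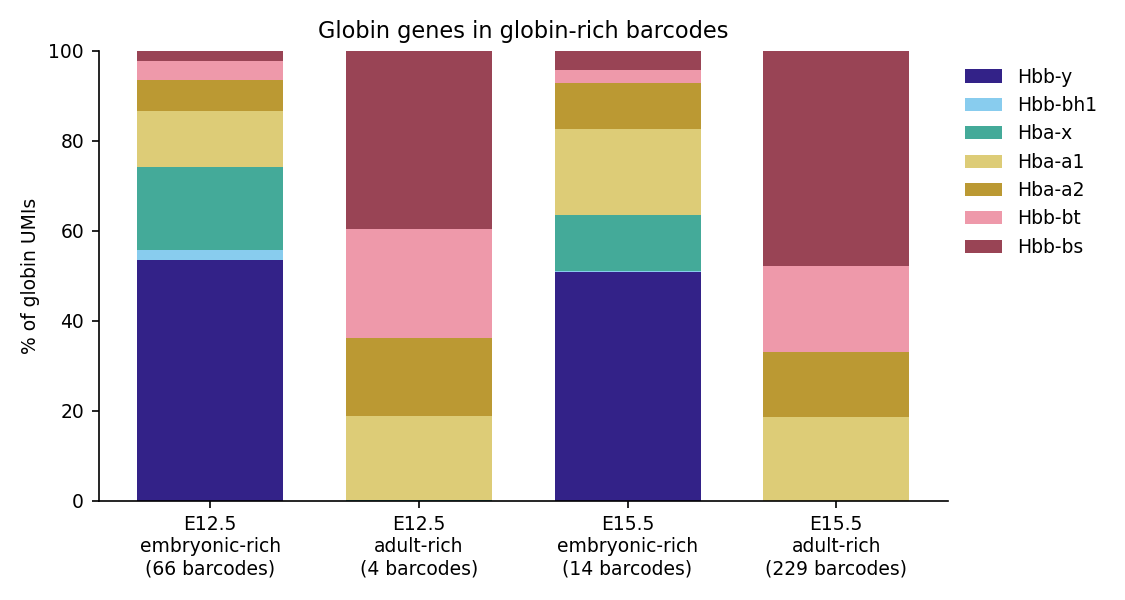
Stacked bars give each globin gene as a percent of all globin UMIs, summed over the embryonic-rich and adult-rich globin-rich barcodes of each age (66, 4, 14 and 229 barcodes). Hbb-y takes 53.6% and 50.8% of the embryonic-rich bars, and Hbb-bs takes 39.6% and 47.8% of the adult-rich bars.

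Outside the globins the members held few abundant RNAs, and which ones they were went partly with age and partly with globin type. Malat1, a long noncoding RNA kept in the nucleus, took 7.26% of the non-globin UMIs of embryonic-rich barcodes at E12.5 against 7.48% at E15.5. In adult-rich barcodes it took 0.428% and 0.579%. Barcodes with under 10% globin lay between, at 2.53% and 2.49%. Malat1 was found in all 66 and all 14 embryonic-rich barcodes, but its share varied widely. Per embryonic-rich barcode it ran from 0.499% through a median of 6.62% to 17.3% at E12.5. At E15.5 it ran from 0.217% through 5.81% to 19.6%. The adult-rich barcodes of E15.5 ran from 0% through 0.275% to 15.9%, so the medians differ while the ranges of Malat1 overlap. Among adult-rich barcodes of E15.5 its summed level was 43738 CPM in the 13 barcodes with 70% to under 80% globin and 2759 CPM in the 152 with 80% to under 90%, so a few barcodes carried much of it.

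Gm42418, a noncoding locus that overlaps ribosomal RNA sequence, went mainly with age. It took 9.05% of non-globin UMIs in embryonic-rich and 19.6% in adult-rich barcodes of E12.5, and 34.9% and 32.6% at E15.5. Per member it ran from 4.18% through a median of 9.10% to 36.6% at E12.5 and from 6.02% through 33.6% to 76.8% at E15.5. Barcodes with under 10% globin had 3.21% and 3.08%, so the rest of the libraries did not show the difference with age. As CPM is a share of all non-globin UMIs, the Gm42418 share lowers every other CPM value at E15.5.

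Genes for ribosomal proteins held 14.7% of non-globin UMIs of members at E12.5 against 10.7% at E15.5. Both embryonic-rich ranges were at 14.8%, and the adult-rich ones at 7.96% and 10.3%. Mitochondrially encoded genes took 1.49% and 3.73%, and 0 members reached 10% of all their UMIs. Among the embryonic-rich barcodes the mitochondrial share was 1.43% at E12.5 against 0.766% at E15.5, and among adult-rich ones 4.45% and 4.001%. The summed share was thus higher in adult-rich barcodes at both ages, though the ranges per barcode overlapped. The E12.5 adult-rich value rests on 52 UMIs of 4 barcodes. Barcodes with under 10% globin were at 3.17% and 4.23%. The ferritin genes Fth1 and Ftl1, which store iron, took 4.12% and 5.64% of the members' non-globin UMIs against 0.131% and 0.282% in barcodes with under 10% globin. They reached 10.5% in the embryonic-rich barcodes of E15.5.

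**Figure D3:**
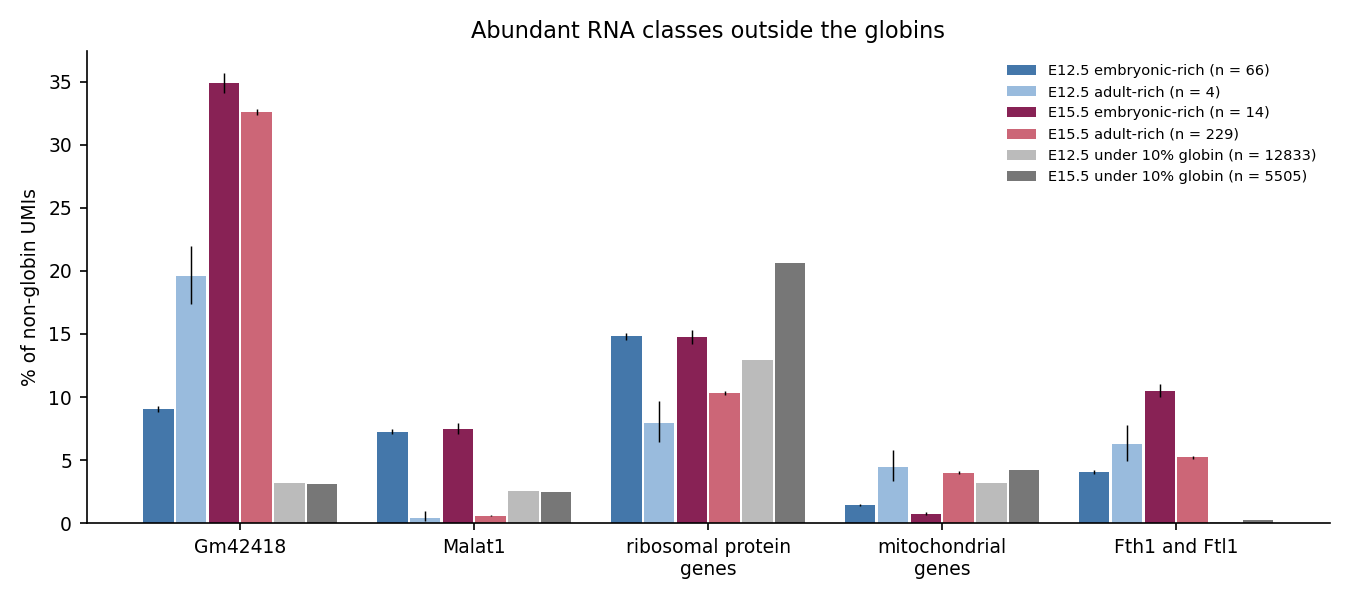
Bars give abundant RNA classes as a percent of non-globin UMIs in embryonic-rich and adult-rich globin-rich barcodes and in barcodes with under 10% globin, at each age, with 95% intervals for counting error. Malat1 is at 7.26% and 7.48% in the embryonic-rich bars and under 1% in the adult-rich bars, and Gm42418 is at 34.9% and 32.6% in both E15.5 bars.

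Members were set against all other barcodes of their library to see which non-globin genes stood above the surrounding RNA. Of 384 genes with at least 20 UMIs in the E12.5 members, 184 (47.9%) were past 2-fold higher than in the other barcodes and 41 (10.7%) past 2-fold lower. At E15.5, 189 of 604 (31.3%) were higher and 227 (37.6%) lower. Genes entered by their UMIs in members alone, so a gene with under 20 UMIs there could not be called lower. The split moved with this minimum: the E12.5 counts were 602 and 281 with 5 UMIs and 61 and 6 with 50. For E15.5 they were 335 and 1234, then 131 and 95. Members held 55199 non-globin UMIs in the E12.5 library and 177970 in the E15.5 one. The minimum thus meant a different CPM in each, and these shares do not compare the ages. Red cell genes had high ratios: Slc4a1 (band 3, the anion exchanger of the red cell membrane) was 973-fold higher in members at E12.5 and 1681-fold at E15.5. Alas2, the first enzyme of erythroid haem synthesis, was 415-fold and 2689-fold higher. Car2, carbonic anhydrase, was 589-fold and 536-fold higher, and Trim10, a RING-finger protein of erythroid cells, 1234-fold and 781-fold.

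Genes outside the lists that were high in members at both ages included several with other known roles. Rec114, known for its part in meiotic recombination, was 445-fold higher at E12.5 and 1244-fold at E15.5. Tent5c, a noncanonical poly(A) polymerase, was 314-fold and 267-fold higher. Ncf4, a subunit of the phagocyte oxidase, was 649-fold and 92.0-fold higher. Pdzk1ip1, whose gene neighbours Tal1, was 1022-fold and 155-fold higher. Cd59a, which protects cells from complement, was 220-fold and 19.6-fold higher. Slc48a1, a haem transporter, was 33.1-fold and 49.7-fold higher, and Gclm, of glutathione synthesis, 53.4-fold and 20.2-fold.

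Between the ages, 965 non-globin genes had at least 20 UMIs over all members and were compared. At E15.5, 107 (11.1%) were past 2-fold higher and 382 (39.6%) past 2-fold lower than at E12.5, and the median gene had a log2 ratio of -0.69. Relative to that median gene 219 (22.7%) were higher and 218 (22.6%) lower. With Gm42418 and AY036118 left out of the total, a choice made after seeing the data, 163 were higher and 269 lower. The split between higher and lower genes therefore depended on the scaling. Log2 ratios below are E15.5 over E12.5 on the CPM scale, and adding 0.69 places them relative to the median gene. The E12.5 sum is almost all embryonic-rich and the E15.5 sum almost all adult-rich, so age and globin type cannot be told apart in these ratios. Values for the smaller ranges are given below for a selection of genes and lists.

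Alas2 was the gene of haem synthesis that was higher at E15.5. Of 8 genes of the pathway 6 were compared, of which 1 was higher and 2 lower at E15.5, beside 11.1% and 39.6% of all genes compared, with a median log2 ratio of -0.16 against -0.69 over all genes. Their summed level was 7355 CPM at E12.5 and 14025 CPM at E15.5 (log2 ratio 0.93, interval 0.78 to 1.09), opposite in sign to the median. Alas2 was at 3225 CPM (interval 2768 to 3735) and then at 10979 CPM (interval 10498 to 11477), giving a log2 ratio of 1.77 (1.55 to 1.997). The later enzymes did not share it. Fech, which inserts iron into the ring, was at 1848 and 2057 CPM, and Urod at 344 and 315 CPM. Thinned to 100 non-globin UMIs, 20 of 70 members at E12.5 (28.6%, unthinned 84.3%) and 153 of 243 at E15.5 (63.0%, unthinned 91.4%) had an Alas2 UMI, against 0.0234% and 0% of barcodes with under 10% globin, with medians of 789.5 and 657 non-globin UMIs per member.

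Within the adult-rich barcodes of E15.5, Alas2 was higher where globin took more of the UMIs. It was at 4578 CPM in 14 barcodes with 50% to under 70% globin, 5568 CPM in 13 with 70% to under 80%, 12346 CPM in 152 with 80% to under 90% and 14999 CPM in 50 with 90% or more. The whole haem list followed the same order, at 6200, 9213, 15756 and 18172 CPM. These bands come from the quantity that chose the barcodes and the first pair holds few barcodes, so the order is a description. In most barcodes of the lowest band Gm42418 took more of the non-globin UMIs than in most of the highest band. That lowers every other CPM value in the lowest band, and its part in the order was not tested.

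Iron genes differed in direction. Of 12 genes 6 were compared, 1 higher and 2 lower (all genes 11.1% and 39.6%), with a median log2 ratio of 0.04. Fth1 was at 30073 and 31404 CPM. Ftl1 was at 11123 and 25010 CPM, giving a log2 ratio of 1.17 (1.05 to 1.29). Slc25a37 (mitoferrin-1), which brings iron into mitochondria, was at 2880 and 2911 CPM, and Glrx5, of iron-sulfur cluster assembly, at 1377 and 1467 CPM. The lower genes, named after their values were seen, were Abcb10 and Tfrc. Abcb10, a transporter of the inner mitochondrial membrane, had 44 and 5 UMIs (797 and 28.1 CPM, log2 ratio -4.83, -6.52 to -3.50). Tfrc, the transferrin receptor that takes up iron, had 33 and 7 UMIs (598 and 39.3 CPM, log2 ratio -3.93, -5.35 to -2.73).

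Erythroid transcription factors were lower in the E15.5 members. Of 11 genes 5 were compared, 0 higher and 4 lower against 39.6% lower over all genes (1 and 4 relative to the median gene), with a median log2 ratio of -2.13 against -0.69 over all genes, and their sum was 2083 CPM at E12.5 and 500 CPM at E15.5. Tal1, a master regulator of blood cell formation, had 30 UMIs (543 CPM) at E12.5 and 6 UMIs (33.7 CPM) at E15.5, giving a log2 ratio of -4.01 (-5.57 to -2.72). Klf3, a repressor of the Klf family, was at 417 and 95.5 CPM, and Foxo3, which acts in late erythroid maturation, at 290 and 84.3 CPM. Lmo2, a bridging partner of Tal1, had 5 and 24 UMIs (90.6 and 135 CPM), with an interval for its log2 ratio of 0.57 that included 0 (-0.84 to 2.32).

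Regulators of globin switching were near the detection limit. Of 10 genes only Hmga2, an embryonic chromatin protein regulated by the Lin28-let-7 axis, had enough UMIs, at 272 CPM at E12.5 and 39.3 CPM at E15.5. It was 1158 and 76.2 CPM in the other barcodes, above its level in members at both ages. Sox6, a repressor of embryonic globins, had 3 and 8 UMIs, and Zbtb7a (LRF), which represses fetal-type globins in human cells, 7 and 5 UMIs. Sox6 was at 54.4 and 44.95 CPM in members and at 152 and 14.3 CPM in the other barcodes. At this depth no difference between the ages was detectable for Sox6, whose log2 ratio of -0.27 had an interval of -2.33 to 2.28.

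Most membrane and cytoskeleton genes compared were lower at E15.5. Of 18 genes 14 were compared, 2 higher and 10 lower where 11.1% and 39.6% of all genes were, with a median log2 ratio of -2.76, and 9 stayed lower relative to the median gene. The sum was 17011 CPM at E12.5 and 8597 CPM at E15.5. Slc4a1 was at 6558 CPM (interval 5900 to 7270) and then at 1107 CPM (interval 958 to 1273), giving a log2 ratio of -2.57 (-2.82 to -2.31). Ank1 (ankyrin-1), which ties band 3 to spectrin, was at 652 and 84.3 CPM. Kel and Ermap, both carriers of blood group antigens, had log2 ratios of -3.40 and -3.98. Epb41 (protein 4.1), by contrast, was at 2989 and 2838 CPM.

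Tspo2, a translocator protein of erythroid cells, was among the higher genes of this list, at 181 and 804 CPM (log2 ratio 2.15, 1.23 to 3.24). The lower level of Slc4a1 was also seen after thinning to 100 non-globin UMIs. A Slc4a1 UMI was in 31 of 70 members at E12.5 (44.3%, unthinned 94.3%) and 19 of 243 at E15.5 (7.82%, unthinned 35.0%). In barcodes with under 10% globin these thinned shares were 0.0234% and 0%, the latter of which allows up to 0.0545%.

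Transport and surface genes were rare, and Cd24a made up most of them at E15.5. Of 12 genes 2 were compared, Cd24a and Cd47, both higher, beside 11.1% higher over all genes. The call of Cd47 rests on a replaced 0. Cd24a, a small surface glycoprotein of precursor cells, was at 308 CPM with 17 UMIs and 2444 CPM with 435 UMIs, a log2 ratio of 2.99 (2.29 to 3.78). In other barcodes it was at 345 and 65.1 CPM. Cd47, the signal that protects red cells from phagocytosis, had 0 UMIs at E12.5 against 25 at E15.5. With the 0 replaced by 3 UMIs this is a 2.58-fold higher CPM, which is not a lower limit. Its level of 140 CPM in E15.5 members stood beside 91.0 CPM in the other barcodes.

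Red cell enzymes and antioxidants split in direction. Of 15 genes of this list in the matrices 13 were compared, 5 higher and 4 lower beside 11.1% and 39.6% of all genes (5 and 2 relative to the median gene), with a median log2 ratio of -0.34 and a sum of 27374 and 41884 CPM (log2 ratio 0.61, again opposite in sign to the median). Bpgm, which makes the metabolite that lowers the oxygen affinity of haemoglobin, was at 2645 and 6080 CPM (log2 ratio 1.20, 0.95 to 1.46). Gpx1 and Prdx2, which remove peroxides, had log2 ratios of 1.01 and 1.10, and Blvrb, a biliverdin and flavin reductase, 1.06. Gpx1 was at 7989 and 16042 CPM and Prdx2 at 5054 and 10816 CPM. Car2 was at 5852 and 3602 CPM, giving a log2 ratio of -0.70 that is the size of the median gene's. Sod1, the cytosolic superoxide dismutase, was at 797 and 124 CPM, and Mgst3, a microsomal glutathione transferase, at 1322 and 326 CPM.

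Genes of terminal maturation and organelle clearance summed to 9547 CPM at E12.5 and to 20380 CPM at E15.5 (log2 ratio 1.09). Of 19 genes 14 were compared, 5 higher and 3 lower where 11.1% and 39.6% of all genes were, with a median log2 ratio of 0.54 against -0.69 over all genes. Relative to the median gene, 9 were higher and 2 lower. Mkrn1, a RING-finger ubiquitin ligase, was at 707 CPM (interval 502 to 966) and then at 7743 CPM (interval 7339 to 8163), giving a log2 ratio of 3.45 (2.995 to 3.95). Ube2l6, a conjugating enzyme for ubiquitin and Isg15, was at 507 and 2085 CPM. Bnip3l (Nix), the receptor that clears mitochondria from reticulocytes, was at 1649 and 3871 CPM. Map1lc3b, which marks autophagosomes, was at 688 and 1399 CPM. Isg20, an exonuclease, had 0 and 73 UMIs, or 7.55-fold higher CPM at E15.5 with the 0 replaced by 3 UMIs. Xpo7, a nuclear exporter acting in nuclear condensation, was lower, at 851 and 169 CPM, as was Trim10, at 960 and 343 CPM.

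Mkrn1 was also higher where globin took more of the UMIs in the adult-rich barcodes of E15.5, at 3052, 4354, 8728 and 10636 CPM over the same bands as Alas2. The part of the Gm42418 share in this order was not tested either. Slc4a1 had no such order, at 286, 1417, 1466 and 361 CPM, the first of which rests on 3 UMIs.

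Proliferation genes were lower as a sum in members than in the other barcodes. Of 25 genes 5 were compared, 1 higher and 2 lower, near the 39.6% lower of all genes, with a sum of 2663 CPM at E12.5 and 3208 CPM at E15.5 against 6242 and 5006 CPM in the other barcodes. The higher gene, Ube2c, a conjugating enzyme of the anaphase-promoting complex, had 6 UMIs (109 CPM) at E12.5 and 342 UMIs (1922 CPM) at E15.5, giving a log2 ratio of 4.14 (3.01 to 5.60). Mki67, a marker of cycling cells, was at 598 and 275 CPM, a ratio that changed sign with 2 other choices of barcodes. Hmgb2, a chromatin protein of dividing cells, was at 507 and 236 CPM, and Top2a at 236 and 185 CPM. Relative to the median gene 0 of the 5 were lower, so the lower calls of Mki67 and Hmgb2 rest on the CPM scale. Ube2c was higher on both scales. In embryonic-rich barcodes of E12.5 the list was at 4233 CPM with 50% to under 60% globin, 1811 CPM with 60% to under 70% and 970 CPM in the 9 barcodes with more, the last with 6 UMIs. As with Alas2, these bands come from the quantity that chose the barcodes, so the order is a description. The part of the Gm42418 share in it was not tested.

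Nuclear noncoding RNAs summed to 73154 CPM in E12.5 members and 12570 CPM in E15.5 members, which was nearly all Malat1 at 71161 and 11457 CPM (log2 ratio -2.63, -2.71 to -2.56). Of 5 genes 4 were compared, 0 higher and 3 lower, beside 39.6% lower over all genes. Within a globin type the sum was not lower at E15.5: it was 74625 CPM at E12.5 against 75523 CPM in embryonic-rich barcodes, and 5133 CPM against 6936 CPM in adult-rich ones. Neat1, the RNA of paraspeckles, was at 634 and 84.3 CPM, whereas Meg3, an imprinted RNA, was at 815 and 843 CPM and below its 1968 and 3207 CPM in the other barcodes.

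Some of the largest ratios between the ages fell outside the lists. Among genes higher in members than in other barcodes, Plaat3, a phospholipase that acts on organelle membranes, had 1 UMI at E12.5 against 118 at E15.5 (18.1 and 663 CPM, log2 ratio 5.19, 2.69 to 10.51). Isg15, a ubiquitin-like protein, had 1 and 91 UMIs (log2 ratio 4.82, 2.30 to 10.14). Nusap1, a spindle protein, had 5 and 192 UMIs, Glo1, which detoxifies methylglyoxal, 2 and 74 UMIs, and Syt14, a synaptotagmin, 2 and 94 UMIs. Iscu, the scaffold for iron-sulfur clusters, had 3 and 82 UMIs (log2 ratio 3.08, 1.49 to 5.39). Mpp1, a membrane palmitoylated protein of the red cell skeleton, had 0 and 88 UMIs, or 9.10-fold higher CPM with the 0 replaced by 3 UMIs.

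In the other direction, Hsd3b6, a steroid dehydrogenase, had 63 and 11 UMIs (1141 and 61.8 CPM, log2 ratio -4.21, -5.28 to -3.27). Nudt4, a hydrolase of inositol pyrophosphates, was among the 10 most abundant non-globin genes at E12.5, at 6703 CPM, and at 730 CPM at E15.5. Eif5b, a translation initiation factor, was at 1993 and 169 CPM, Pdzk1ip1 at 1178 and 112 CPM and Prdx6, a peroxiredoxin, at 779 and 101 CPM. Ttn, the giant spring protein of muscle, was at 1087 and 107 CPM in members and at 532 and 175 CPM in the other barcodes. Summed muscle lineage markers, by contrast, were at 272 and 242 CPM in members and 528 and 677 CPM in the other barcodes.

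**Figure D4:**
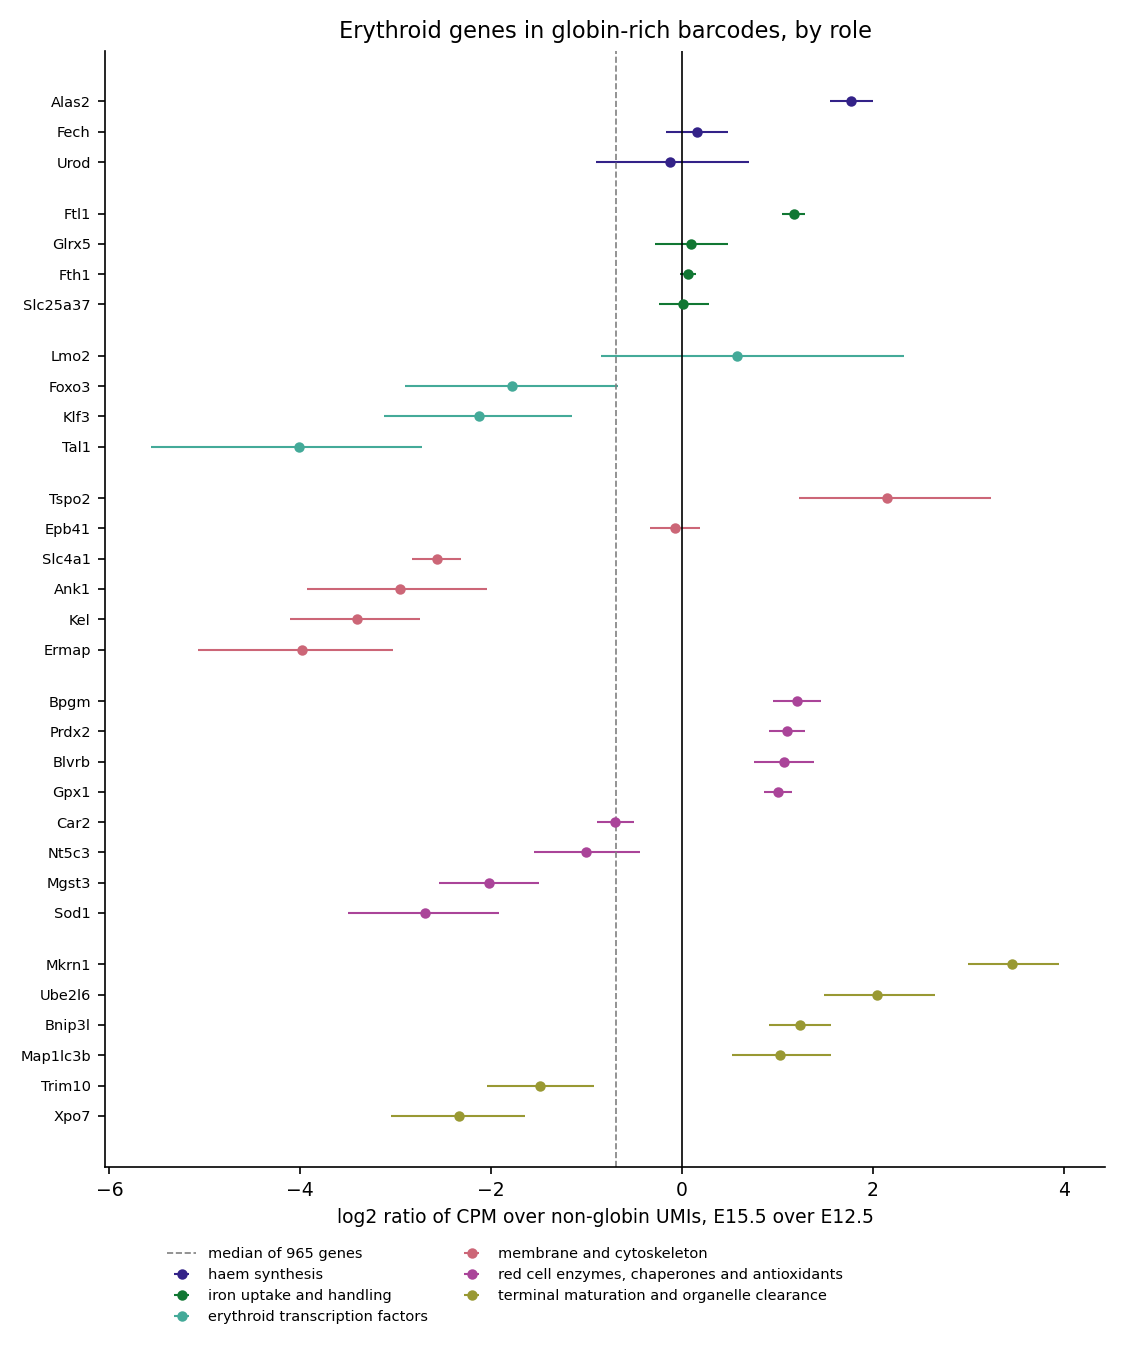
Points give the log2 ratio of CPM, E15.5 over E12.5, for named erythroid genes with a UMI at both ages, grouped by role, with 95% intervals for counting error. The dashed line marks the median of the 965 genes compared. Mkrn1 is at 3.45 and Alas2 at 1.77 on the right, Slc4a1 at -2.57 and Tal1 at -4.01 on the left, and Fth1 at 0.06.

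The 14 embryonic-rich barcodes of E15.5 held globin, ferritin and Malat1 but little RNA of the 7 erythroid genes outside the rule. They had between 460 and 1860 non-globin UMIs (median 1053.5), more than the adult-rich barcodes of that age (median 648), and 149 to 509 genes. A UMI of the 7 erythroid genes outside the rule was in 5 of 14, against 219 of 229 adult-rich barcodes of E15.5 and 66 of 66 embryonic-rich barcodes of E12.5. The summed level was 958 CPM from 14 UMIs, against 16400 and 11253 CPM. Slc4a1 had 1 UMI and Alas2 had 12 (821 CPM, 424 to 1434). In the other barcodes of that library the same 7 genes summed to 9.18 CPM.

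Several lists were lower in these barcodes than in either larger range. Haem synthesis was at 1368 CPM (836 to 2113), against 7255 CPM in the embryonic-rich barcodes of E12.5 and 15158 CPM in the adult-rich ones of E15.5. Membrane and cytoskeleton genes were at 1026, 17046 and 9274 CPM in the same order. Enzymes and antioxidants were at 8277, 26930 and 44891 CPM, and proliferation genes at 821, 2647 and 3422 CPM. Erythroid transcription factors, at 616 CPM (282 to 1169), were lower than in embryonic-rich barcodes of E12.5 (2128 CPM) but not than in adult-rich ones of E15.5 (490 CPM). Transport proteins, at 684 CPM (328 to 1258), stood beside 407 and 2865 CPM. Slc25a37 had 0 UMIs there, and Gpx1 13 UMIs (889 CPM) against 7570 and 17398 CPM.

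**Figure D5:**
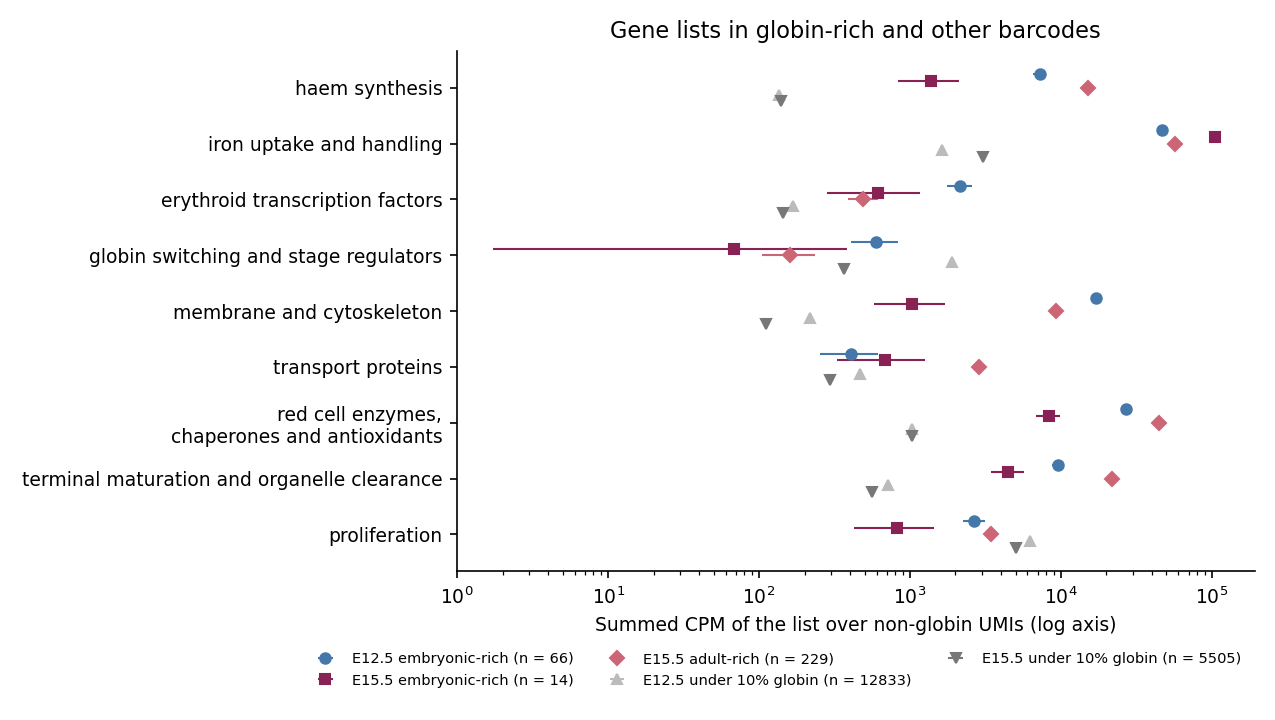
Points give the summed CPM of each gene list over non-globin UMIs (log axis), with 95% intervals for counting error, in embryonic-rich barcodes of E12.5 and E15.5, adult-rich barcodes of E15.5 and barcodes with under 10% globin. Haem synthesis is at 7255, 1368 and 15158 CPM in these 3 globin-rich groups, and proliferation lies lower in each of them than in the barcodes with under 10% globin.

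Fth1, of iron storage, was higher in them. It was at 83322 CPM (78708 to 88136), above its 29724 CPM in embryonic-rich barcodes of E12.5 and 26758 CPM in adult-rich barcodes of E15.5, and was found in all 14. Tpt1, a translationally controlled protein, was at 15255 CPM against 6293 and 9440 CPM. Map1lc3b was at 2463 CPM against 703 and 1304 CPM. Pdzk1ip1 was at 1231 CPM, beside 1203 CPM in embryonic-rich barcodes of E12.5 and 12.2 CPM in adult-rich ones of E15.5, so that at E15.5 it was higher with embryonic globins. At E12.5 the 4 adult-rich barcodes had 0 UMIs of it, with an upper bound of 3156 CPM, and no difference was detectable there. Cd59a was at 410, 1092 and 141 CPM in the same order. Mkrn1 had 2 UMIs (137 CPM), beside 685 and 8424 CPM.

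The 4 adult-rich barcodes of E12.5 were shallow, with 184, 342, 340 and 303 non-globin UMIs and 136 to 209 genes. Their haem synthesis list was at 11976 CPM from 14 UMIs (6547 to 20094), and their nuclear RNA list at 5133 CPM from 6 UMIs, nearer the 6936 CPM of adult-rich barcodes of E15.5 than the 74625 CPM of embryonic-rich barcodes of their own library. Enzymes and antioxidants were at 47904 CPM (36186 to 62208) from 56 UMIs. That was above the 26930 CPM of embryonic-rich barcodes of E12.5 and near the 44891 CPM of adult-rich ones of E15.5. Iron genes were at 65868 CPM (51982 to 82324), against 46789 and 56945 CPM in the same order. Membrane and cytoskeleton genes were at 15398 CPM (9126 to 24335), against 17046 and 9274 CPM. Transcription factors of the erythroid list had 0 UMIs in these 4 barcodes, with an upper bound of 3156 CPM that lies above the level of every other range.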

How the data were processed

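Droplet single-cell RNA libraries of limb muscle at E12.5 and E15.5, 1 per age, were analysed. The deposited matrices hold raw UMI counts for each gene and barcode. Cell Ranger 4.0.0 made them, per the file headers. The submitters' processing notes also name Seurat 4.3.0 and mm10. Cell calling settings are not given in the sources used here. Barcode totals started at 500 UMIs in either library, with medians of 2384 and 7332.5 UMIs over 32285 genes. Of the gene identifiers, 32158 were found in GENCODE vM21, 31436 with the same symbol.

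Barcodes with 50% or more globin UMIs were taken without any other filter, and no doublets were removed. Raw counts were summed per library and scaled to 1000000 non-globin UMIs (CPM). CPM has exact Poisson intervals, ratios exact conditional binomial intervals and shares exact Clopper-Pearson intervals. They cover counting error only. A gene was called by size, past 2-fold among genes with at least 20 UMIs, and a count of 0 was replaced by 3. Named genes are the 4 with the most UMIs in each list, list genes past 2-fold with at least 50 UMIs, the 10 most abundant genes per library, the 10 highest and the 10 lowest ratios between ages, and the 10 highest ratios over other barcodes outside the lists. A selection of them is printed, and a few are not reported here. Counts and sums of a list cover all its genes. Thinning drew 500 UMIs, or 100 non-globin UMIs, per barcode with seed 1. The embryonic and adult ranges were compared by values, since neither library held 50 barcodes in each.

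The barcodes and gene lists were chosen with earlier results of these data known. The ratio step was tested on simulated data. Python 3.11.15, numpy 2.4.6, scipy 1.17.1, pandas 2.3.3 and matplotlib 3.10.9 were used. Promoter sequences are from RefSeq, GRCm38.p6. No replicates exist for either age, and library and age cannot be told apart.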

Additional observations from a re-analysis of the deposited data

How the results depend on the processing

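No paired analysis was possible because each age has 1 library. The globin-rich share of E12.5 was 0.696%, 0.0927% and 0.0077% at globin thresholds of 30%, 70% and 80%, and that of E15.5 was 3.51% at 80%. With at least 500 genes and under 10% mitochondrial UMIs the shares were 0.212% and 0.146%, and the difference changed sign, to -0.0658 points. The globin-rich barcodes removed by this filter all had under 500 genes. The thresholds of 30%, 70% and 80% left 90, 12 and 1 barcodes at E12.5, and the filter left 26 there and 6 at E15.5. The embryonic share of globin UMIs at E12.5 was 72.6%, 61.4% and 74.0% at these thresholds, so the last value is that of 1 barcode. It was 75.1% under that filter, 70.9% without the 10% of members with the most UMIs and 69.96% with equal weight per barcode. At E15.5 it was 2.75%, 1.55%, 0.409%, 3.16%, 2.12% and 3.56%, and 2.21% without members with other-class markers. Genes higher and lower at E15.5 numbered 107 and 382 as reported. Lower genes were 636 at a 30% threshold. The counts were 69 and 194 at 70%, 43 and 49 under the gene and mitochondrial filter, 219 and 218 when scaled to the median gene, 236 and 1906 with a minimum of 5 UMIs, 71 and 98 with 50 UMIs, and 31 and 108 with 20 UMIs in each age. Without Gm42418 and AY036118, an alternative chosen after seeing the data, 163 were higher. Against other barcodes at E12.5 the counts were 602 higher and 281 lower with 5 UMIs, 61 and 6 with 50 UMIs, and 104 lower when scaled to the median gene. At E15.5 they were 335 and 1234 with 5 UMIs, and 95 lower with 50 UMIs. Among barcodes with 10% or more globin, also chosen after seeing the data, 102 and 30 were embryonic-rich. Of the named genes past 2-fold between the ages, log2 ratios changed sign at a 70% threshold for Slc2a1 (-2.77), Mki67 (0.95) and Cd47 (-1.51). Under the gene and mitochondrial filter they did so for Tmcc2 (1.64), Aqp3 (1.79), Mki67 (0.14) and Zbtb7a (1.20), and without the deepest members for Slc2a1 (-0.0842). Named genes within 2-fold also changed sign in some settings, among them Fth1, Slc25a37, Glrx5 and Lmo2. The values of Slc2a1 and Cd47 at 70%, and of Aqp3 and Zbtb7a under the filter, set 0 UMIs at one age to a floor of 3 and show no direction. The summed globin switching regulators had a log2 ratio of 0.0106 under the gene and mitochondrial filter. The cause of these changes was not tested, except that stricter minimums and thresholds leave fewer genes and barcodes.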
